A study of Mus musculus with 25 samples.

Results

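RNA levels and histone methylation of 10 genes of the MLL and SET1 complexes, the enzymes that methylate lysine 4 of histone H3 (H3K4), were examined in mouse embryonic stem cells (mESCs) and 8-cell embryos in which Dot1L, the methyltransferase of H3 lysine 79 (H3K79), was absent or inhibited. The genes were chosen by name and comprised 6 catalytic subunits (Kmt2a, Kmt2b, Kmt2c, Kmt2d, Setd1a and Setd1b), 3 subunits of the shared core (Wdr5, Ash2l and Rbbp5) and Men1, which encodes menin. All 10 were present among the 35731 genes of the mESC RNA table and the 24062 genes of the embryo RNA table, and all 10 passed the filter on low counts in both. RNA was sequenced from untreated v6.5 mESCs, with 3 libraries of wild-type (WT) cells and 2 of Dot1L knockout (KO) cells. Embryo RNA came from wild-type B6D2F1 x Cast/EiJ embryos at 56 hours after fertilization, 30 to 35 per extraction, in 2 libraries with the solvent DMSO and 2 with the Dot1L inhibitor SGC0946. In the same untreated v6.5 cells, peaks of di- and trimethylated H3K79 (H3K79me2 and H3K79me3) were called from chromatin immunoprecipitation with antibodies ab3594 and ab2621, in 2 WT and 2 KO libraries per mark. The labels name neither the deleted stretch of Dot1l nor the number of KO clones, nor the dose of SGC0946. They do not say whether replicates were separate cultures or pools of separate matings, so p-values measure only the spread between these samples.

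MLL and SET1 enzymes carry a SET domain that transfers methyl groups to H3K4, and they need a core of WDR5, RBBP5, ASH2L and DPY30 for full activity. KMT2A and KMT2B bind menin and act at CpG-rich promoters, KMT2C and KMT2D place H3K4 monomethylation at enhancers, and SETD1A and SETD1B place much of the H3K4 trimethylation at active promoters. Dot1L is the sole known enzyme for H3K79 methylation, which lies over the 5′ part of transcribed genes, and it is best known as the partner of KMT2A fusion proteins in leukaemia.

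Dot1l itself was measured at 104.4, 96.8 and 99.08 CPM, counts scaled to a common library total, in the WT libraries and at 81.44 and 71.63 CPM in the KO libraries, a log2 fold change of −0.39 (edgeR adjusted p 3.38e-05). A gene-level count cannot tell intact from truncated transcripts, so this value does not check the knockout. Library totals ran from 26860527 to 33755064 counts in mESCs and from 24950199 to 32479590 in embryos. All 5 pluripotency markers were detected in every mESC library, and their summed level was 2392 to 2432 CPM in WT and 1860 to 1971 CPM in KO. Markers of fibroblast feeder cells, also all 5 detected, summed to 151 to 194 CPM in WT and 194 to 241 CPM in KO, and 4 primitive endoderm markers summed to 11.2 to 12.6 and 18.4 to 20.7 CPM. In embryos, feeder markers summed to 0.534 to 2.86 CPM and cumulus cell markers to 0.572 to 0.847 CPM, with 1 to 4 of each 5 at 0 counts. Of 6 early-embryo markers, 5 or all 6 were detected, and they summed to 1825 and 1925 CPM with DMSO and to 1295 and 1645 CPM with SGC0946.

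Promoter sequence was taken from RefSeq on GRCm38.p6 for 7 of the 10 genes, as the 250 bases before the annotated start. Those of 3 genes are shown because they span the range of the H3K79me2 pattern described next: Wdr5 had the highest peaks, Kmt2c the longest marked stretch and Men1 the shortest. Capitals mark each CpG, the dinucleotide that some MLL and SET1 complexes recognise through CXXC domains. Bases inside the annotated gene body were left out for Kmt2c.
Wdr5, chr2:27514897-27515146, plus strand: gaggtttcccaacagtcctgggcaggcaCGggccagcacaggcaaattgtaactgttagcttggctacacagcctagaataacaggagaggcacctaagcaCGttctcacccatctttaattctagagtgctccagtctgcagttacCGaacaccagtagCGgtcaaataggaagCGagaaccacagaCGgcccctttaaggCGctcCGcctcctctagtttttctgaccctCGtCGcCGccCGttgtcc
Kmt2c, chr5:25498856-25499033, minus strand: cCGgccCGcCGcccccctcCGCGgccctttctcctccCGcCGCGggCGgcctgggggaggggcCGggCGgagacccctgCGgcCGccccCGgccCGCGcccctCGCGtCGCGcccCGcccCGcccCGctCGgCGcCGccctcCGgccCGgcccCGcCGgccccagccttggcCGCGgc
Men1, chr19:6334729-6334978, plus strand: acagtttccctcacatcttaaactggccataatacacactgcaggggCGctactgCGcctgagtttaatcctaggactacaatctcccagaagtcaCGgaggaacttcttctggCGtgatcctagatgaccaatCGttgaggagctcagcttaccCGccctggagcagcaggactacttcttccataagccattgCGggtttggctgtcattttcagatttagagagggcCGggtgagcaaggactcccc
The printed Kmt2c stretch holds 32 CpGs in 178 bases. Over its full 250 bases the Kmt2c promoter holds 48, more than 99.8% of the 27025 promoters of the same length in the table, where the median is 6. Wdr5 has 12 CpGs (more than 66.2% of promoters) and Men1 has 8 (more than 56.6%). Among the other members there are 29 in Kmt2a, 26 in Kmt2d, 25 in Setd1a and 10 in Rbbp5, so all 7 exceed the median. As for Kmt2c, part of the 250 bases lies inside the annotated gene body for Kmt2a and Rbbp5. For Kmt2d all 250 do, so its values do not describe sequence upstream of the body. GC content runs from 40.0% in Rbbp5 to 91.6% in Kmt2c, against a median of 52.0%. On either strand, TATAAA is in 0 of the 7 promoters and in 13.0% of all promoters. CCAAT is in Men1 alone and in 34.5% of all, and GGGCGG is in Kmt2a, Kmt2c, Kmt2d, Wdr5 and Men1 and in 33.0% of all. None of the 3 motifs contains another, and a match is a description of the sequence only.

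H3K79me2 lay over all 10 genes in both WT libraries. A gene counts here as marked where each WT list has a peak with 1 bp or more over the gene body, which held for 44.3% of the 18578 tested genes with a position. The members were well expressed in WT cells, with Setd1b and Men1 in the fourth of 5 expression groups, where 76.9% of genes were marked, and the other 8 in the fifth, where 94.2% were marked. The count of 10 therefore stands beside a high background at that level of expression. There were 125 and 107 H3K79me2 peaks over the members in WT replicates 1 and 2. The KO lists held 16 and 12 H3K79me2 peaks in all, and 0 of them lay over a member or within 2 kb of one.

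Among the catalytic subunits, Kmt2c (ENSMUSG00000038056, chromosome 5, 25271795 to 25498855) carried the longest H3K79me2 coverage of the 10. Its peaks covered 60.7 and 62.0 kb of a 227.1 kb body, and the mean of 61.3 kb was above that of 99.1% of the 8230 marked genes, whose median was 3.86 kb. An 18.7 kb peak from 25479621 to 25498306 began 477 bases after the annotated start in replicate 1, and its counterpart in replicate 2, from 25479565 to 25498284, began at 499 bases. Kmt2a (ENSMUSG00000002028, chromosome 9, 44803355 to 44881352), the gene whose translocations give the MLL fusions, had 22.2 and 21.1 kb of 78.0 kb covered, above 91.0% of marked genes. Both genes are long, and as a share of the body their coverage was nearer the middle of the marked genes: 27.0% for Kmt2c and 27.7% for Kmt2a, against a median of 21.0%. In both, most of the first 10 kb was covered, from 91.2% in Kmt2a replicate 1 to 95.5% in its replicate 2, with Kmt2c in between, and at most 24.2% of the rest. A long non-coding RNA gene, Gm39326, overlaps Kmt2a by 26434 bp, and without strand its share of the reads or peaks cannot be told apart.

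Setd1b (ENSMUSG00000038384, chromosome 5, 123142040 to 123168630) had the largest mean share of its body covered, with 56.1 and 45.3%, or 14.9 and 12.0 kb of 26.6 kb. Kmt2d (ENSMUSG00000048154, chromosome 15, 98831669 to 98874077) had 28.1 and 22.3% covered, with its highest peak at 8.01-fold and 9.55-fold enrichment. That peak began at −782 and −650 bases relative to the start in the promoter table, which for Kmt2d lies inside the annotated body. Kmt2b (ENSMUSG00000006307, chromosome 7, 30568855 to 30589056) had 3 and 2 peaks. The highest, 4.84 and 4.06 kb long, lay near the higher-coordinate end of its body, with enrichments of 8.85-fold and 9.72-fold, and the others were 254 to 469 bases long. Setd1a (ENSMUSG00000042308, chromosome 7, 127777389 to 127800122) had the smallest mean covered share, with 11.0 and 16.1%. Its peaks lay between 342 bases and 6.92 kb after the start, and none lay in the last 12.7 kb of the body. SETD1A and SETD1B are paralogous SET1 enzymes, and their covered lengths were 2.50 and 3.66 kb for Setd1a against 14.9 and 12.0 kb for Setd1b, so in both libraries Setd1b had the longer coverage.

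In the core, Wdr5 (ENSMUSG00000026917, chromosome 2, 27515147 to 27536535), the WD40-repeat subunit that joins the catalytic subunit to the core, had the highest H3K79me2 enrichment of the 10. Its top peak reached 13.1-fold in replicate 1 (27515274 to 27521846) and 12.4-fold in replicate 2 (27515270 to 27521550). The mean of 12.7-fold was above that of 98.4% of marked genes, whose median was 5.6-fold. The peak began 127 and 123 bases after the start, downstream of the sequence printed above, and no base of the 1 kb before the start was covered. Rbbp5 (ENSMUSG00000026439, chromosome 1, 132477348 to 132505665) had 95.7 and 97.0% of its first 10 kb covered, and top enrichments of 9.99-fold and 7.07-fold. Ash2l (ENSMUSG00000031575, chromosome 8, 25816000 to 25847694) had 29.6 and 29.0% of its body covered. Its highest peaks lay towards the higher-coordinate end, from 25842885 to 25847312 at 7.4-fold and from 25842872 to 25844403 at 7.16-fold. Men1 (ENSMUSG00000024947, chromosome 19, 6334979 to 6340894), the scaffold that tethers KMT2A and KMT2B to chromatin, had 1 short peak in each library, of 1.68 kb at 5.27-fold and 0.905 kb at 2.89-fold. Its mean coverage of 1.29 kb was above that of 20.7% of marked genes, and it was the single member without a peak of both lists at a −log10 q of at least 5.

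**Figure D1:**
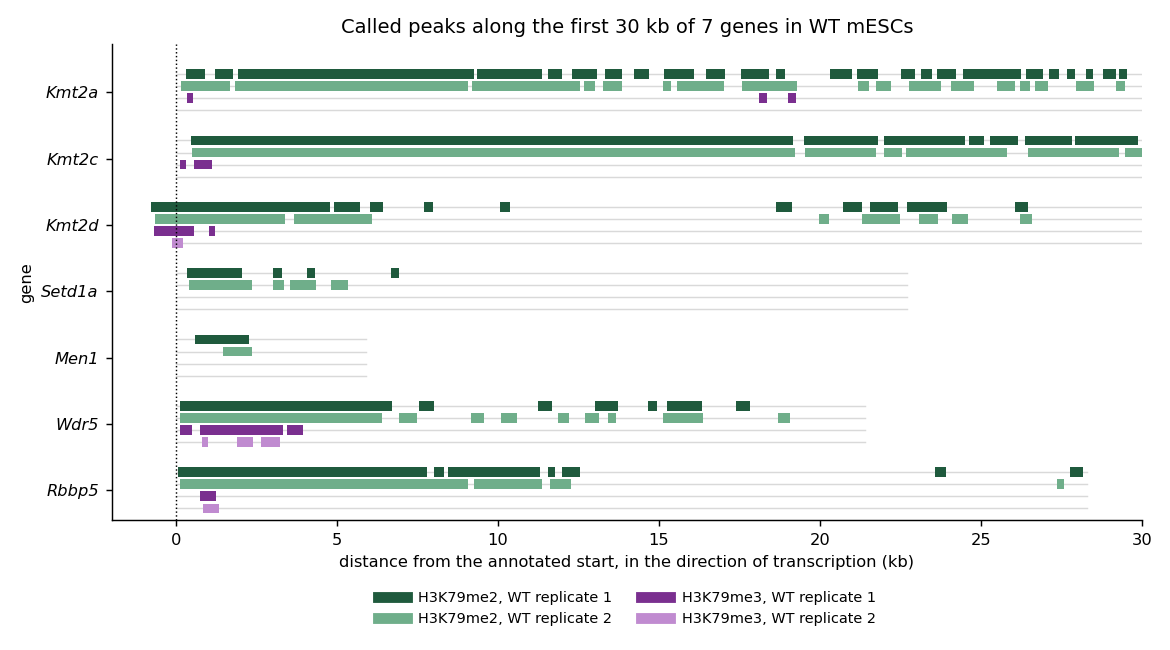
Called peaks in WT mESCs along the first 30 kb of the 7 genes with a promoter entry, by distance from the annotated start in kb (horizontal axis). Each gene has 4 rows, for H3K79me2 replicates 1 and 2 and H3K79me3 replicates 1 and 2, and grey lines show the gene body. H3K79me2 begins after the start in all but Kmt2d, whose start used here lies inside the annotated body. It covers 91.2 to 97.0% of the first 10 kb in Kmt2a, Kmt2c and Rbbp5.

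H3K79me3 was called over fewer members. Peaks of both WT lists lay over 4 of the 10 (Kmt2d, Wdr5, Ash2l and Rbbp5), against 11.2% of all tested genes with a position, 8.54% in the fourth expression group and 34.9% in the fifth. WT replicate 1 had 19800 H3K79me3 peaks and replicate 2 had 7338, and replicate 1 alone placed the mark over 8 members, adding Kmt2a, Kmt2b, Kmt2c and Setd1b, against 26.8% of all tested genes in that list. Setd1a and Men1 had no H3K79me3 peak in either list. Wdr5 had 3 peaks in each library, over 16.1 and 5.96% of its body, with a top enrichment of 6.33-fold and 5.9-fold within the first 3.95 kb. Ash2l had 11.8 and 8.31% covered, at 4.18-fold and 5.62-fold. Rbbp5 had a single peak of 0.498 and 0.497 kb that overlapped between the lists, starting 754 and 829 bases after the start, at 4.07-fold and 3.51-fold. Kmt2d had 3.38 and 0.757% covered. Where it was called in both lists, H3K79me3 thus took up a smaller part of the gene body than H3K79me2. The KO lists held 178 and 328 H3K79me3 peaks, of which 0 lay over a member or within 2 kb of one. Enrichments are the authors' own values per peak, and the depth of these libraries is unknown, so an absent peak is not an absent mark.

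**Figure D2:**
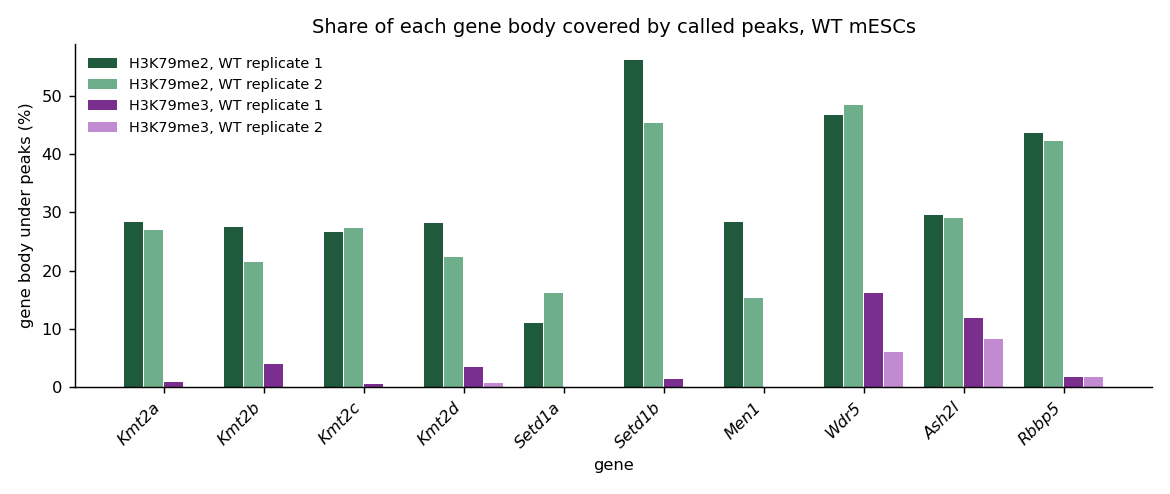
Share of each gene body under called peaks in WT mESCs (vertical axis, percent), with 1 bar per mark and WT library. H3K79me2 covers 11.0 to 56.1% of every body, and H3K79me3 reaches at most 16.1%, in Wdr5 replicate 1.

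KO and WT mESC RNA were compared to ask which of these genes had another RNA level without Dot1L. In edgeR, 7 of the 10 members were lower in KO and 0 were higher at an adjusted p under 0.05, where 21.7% of 19561 tested genes were lower, 22.5% higher and 44.3% called in all. The median SE was 0.04 over the members and 0.0978 over all tested genes, so smaller differences could pass in the members. The share called among genes of like expression was not computed. With upper-quartile scaling, 5 members were lower and Kmt2a was higher. Over all genes, 4409 were higher and 4248 lower, and upper-quartile scaling gave 5563 and 3218. CPM of the 2 groups did not overlap for 9 of the 10 members, against 62.5% of all genes. The members' median log2 fold change was −0.16, and that of all tested genes was 0.00 with quartiles at −0.21 and 0.28, so apart from Setd1b and Wdr5 each member lay within the quartiles of the table. No member is X-linked, and of tested X-linked genes with at least 1 CPM 88.3% had a negative log2 fold change, called or not, against 49% of those on autosomes. In bulk RNA, fewer cells of a type and less RNA per cell cannot be told apart. Summed pluripotency markers were lower and feeder and primitive endoderm markers higher or equal in KO, as given above, and their part in these differences was not tested.

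Setd1b had the largest difference of the 10. Its level was 49.23, 47.71 and 44.9 CPM in WT and 24.37 and 32.77 CPM in KO. Both KO libraries were below every WT library, and they differed from each other more than the WT libraries did. The mean fell from 47.28 ± 2.2 CPM in the 3 WT libraries to 28.57 ± 5.94 CPM in the 2 KO libraries (both SD). The log2 fold change was −0.72 (SE 0.119, 95% interval −1.01 to −0.44; edgeR adjusted p 0.00266). Without KO replicate 1 it was −0.53, and without KO replicate 2 it was −0.96.

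Kmt2c, Kmt2d and Kmt2b fell by similar amounts. Kmt2c, an enhancer H3K4 monomethyltransferase, was at 383.9, 381.9 and 386.9 CPM in WT and at 335.1 and 336.6 CPM in KO. These libraries spread little within a group, and the log2 fold change was −0.19 (SE 0.0375; edgeR adjusted p 0.00047). Kmt2d, its paralogue, was at 208.7, 191.2 and 195.7 CPM in WT and at 168.7 and 175.6 CPM in KO, and its log2 fold change was −0.21 (SE 0.0455, edgeR adjusted p 0.00148). Kmt2b, which trimethylates H3K4 at CpG-rich promoters, was at 130.6, 117.9 and 125.1 CPM in WT and at 106 and 111.4 CPM in KO, and its log2 fold change was −0.20 (SE 0.0494, edgeR adjusted p 0.00405). For each of these 3 genes, every KO library lay below every WT library. Gm32082 overlaps Kmt2b by 278 bp, and the pseudogenes Gm18343 and Hspe1-ps3 lie within Kmt2c over 611 and 439 bp.

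Setd1a was at 118.4, 112.7 and 115 CPM in WT and at 101.5 and 109.2 CPM in KO. Its log2 fold change of −0.13 (SE 0.0469) had an edgeR adjusted p of 0.0317. The call was lost with upper-quartile scaling (−0.07, adjusted p 0.262), in DESeq2 (−0.14, adjusted p 0.0548) and in edgeR without WT replicate 1 (adjusted p 0.123), WT replicate 3 (0.08) or KO replicate 1 (0.172). Kmt2a differed in sign from the other catalytic subunits. It was at 200.6, 186.2 and 202 CPM in WT and at 211.7 and 209.3 CPM in KO, so both KO libraries were above every WT library. Its log2 fold change of 0.10 (SE 0.0439, 95% interval 0.01 to 0.19) did not pass (edgeR adjusted p 0.0729), and it passed with upper-quartile scaling (0.17, adjusted p 0.00449).

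**Figure D3:**
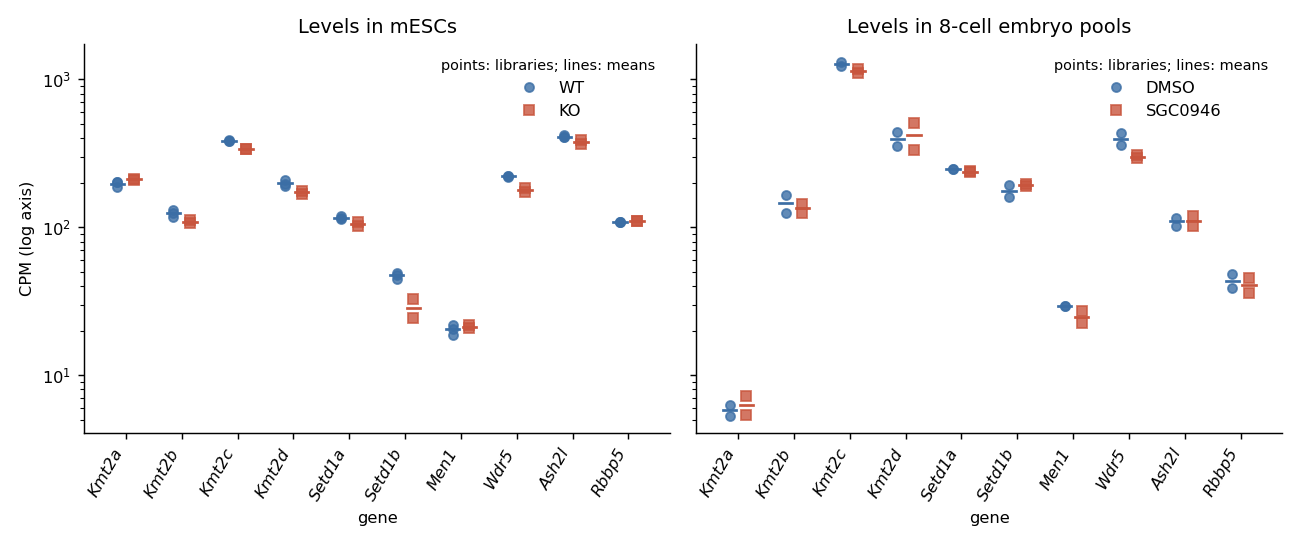
CPM per library (log axis) of the 10 genes in mESCs (left, 3 WT and 2 KO) and in 8-cell embryos (right, 2 DMSO and 2 SGC0946), with points for libraries and lines for group means. KO points lie below WT points for Kmt2b, Kmt2c, Kmt2d, Setd1a, Setd1b, Wdr5 and Ash2l, and Kmt2a lies between 186.2 and 211.7 CPM in mESCs and between 5.315 and 7.244 CPM in embryos; heights of different genes are not comparable because CPM is not per length.

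Of the core subunits, Wdr5 fell most. It was at 220.5, 219.7 and 222 CPM in WT and at 172 and 185.3 CPM in KO. The WT libraries lay close together and both KO libraries were well below them, at means of 220.8 ± 1.17 CPM (SD, n = 3) and 178.7 ± 9.43 CPM (SD, n = 2). The log2 fold change was −0.31 (SE 0.0428, 95% interval −0.40 to −0.21; edgeR adjusted p 2.05e-05), and the RNA fell by 19.1%. Ash2l, whose product stimulates the SET domain together with RBBP5, was at 405.4, 419.2 and 404.1 CPM in WT and at 363.2 and 386.2 CPM in KO. Its log2 fold change was −0.13 (SE 0.041; edgeR adjusted p 0.0175). That call was lost with upper-quartile scaling (−0.06, adjusted p 0.211) and in edgeR without WT replicate 1 (0.0513), WT replicate 2 (0.104), WT replicate 3 (0.0507) or KO replicate 1 (0.0526). Rbbp5 was at 108.8, 108.2 and 108.7 CPM in WT and at 110.4 and 110.7 CPM in KO. The groups did not overlap, yet the log2 fold change was 0.03 (SE 0.0421, 95% interval −0.06 to 0.12) and did not pass (edgeR adjusted p 0.643).

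Men1 was at 21.8, 18.77 and 20.45 CPM in WT and at 21.67 and 20.7 CPM in KO, the single member whose groups overlapped. Its log2 fold change was 0.06 (SE 0.0744, 95% interval −0.10 to 0.22; edgeR adjusted p 0.547). The 3 members that were not called had 95% intervals that lay between −0.10 and 0.22. Kmt2a and Rbbp5, 2 of these 3, had H3K79me2 over 91.2 to 97.0% of their first 10 kb in WT, and Kmt2c, with coverage in that range, fell. Men1, the third, had the shortest mean coverage of the 10 (1.29 kb). Setd1b, with the largest mean share of its body covered (50.7%), and Wdr5, with the highest mean enrichment (12.7-fold), had the largest falls. A link between the mark and the difference in RNA was not tested.

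**Figure D4:**
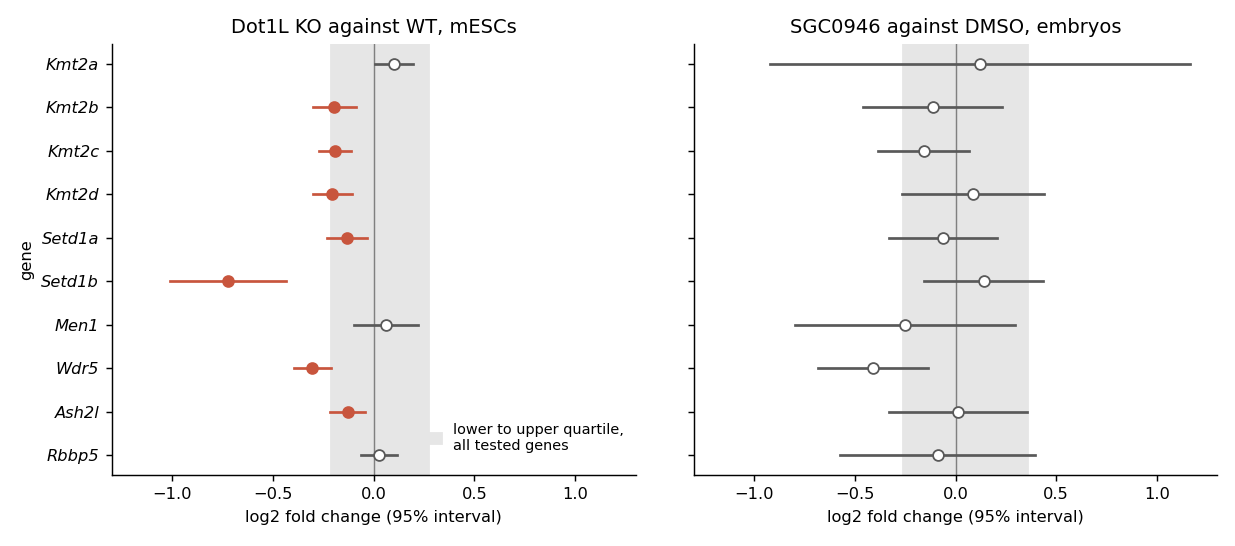
Log2 fold change with its 95% interval (horizontal axis) of each gene for KO against WT mESCs (left) and SGC0946 against DMSO embryos (right). Filled points passed an edgeR adjusted p under 0.05 and grey bands run between the quartiles of all tested genes: 7 genes are filled and below 0 on the left, of which Setd1a and Ash2l are not called with upper-quartile scaling while Kmt2a is then called higher, and 0 are filled on the right.

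In embryos, SGC0946 and DMSO pools were compared to ask the same of inhibition during cleavage. At an edgeR adjusted p under 0.05, 0 of the 10 members and 0% of 14351 tested genes were called. At an unadjusted p under 0.05 it was 1 member, Wdr5, and 8.43% of all genes. DESeq2 called 0 members and 126 genes, 1.64% of the 7673 to which it gave an adjusted p. The groups did not overlap for 4 of the 10 members (Kmt2c, Setd1a, Wdr5 and Men1), close to the 39.2% of all genes. The median log2 fold change of the members was −0.08, against 0.01 for all genes, and 6 of the 10 were negative. Summed early-embryo markers were lower in both SGC0946 libraries, as given above, and the 5 pluripotency markers summed to 1091 and 1102 CPM with DMSO and to 701 and 831 CPM with SGC0946. Pou5f1 is in both lists, at a mean of 708.1 CPM with DMSO and 502.8 CPM with SGC0946, so the sums are not independent. The part of these markers in the values of the members was not tested. Over the members, 95% intervals were 0.45 to 2.09 wide on the log2 scale, against 0.16 to 0.57 in mESCs, so the differences that most members had in mESCs were not detectable in these 4 libraries.

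Wdr5 was at 433.6 and 360.3 CPM with DMSO and at 305.2 and 292.7 CPM with SGC0946. Both treated pools were below both control pools, with a log2 fold change of −0.41 (SE 0.128, 95% interval −0.68 to −0.14). The edgeR p was 0.00548 and the adjusted p 0.32, with alternatives giving 0.0665 to 0.891, and without DMSO replicate 1 the log2 fold change was −0.27. Wdr5 had a negative log2 fold change in both systems, −0.31 in mESCs and −0.41 in embryos, and it passed in mESCs only. Kmt2b, Kmt2c and Setd1a were also negative in both. Dot1l was at 277.7 and 255.8 CPM with DMSO and at 221.4 and 214.1 CPM with SGC0946, a log2 fold change of −0.29 (edgeR adjusted p 0.538).

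The catalytic subunits showed no shared direction in embryos, with 3 of 6 negative. Kmt2c was at 1314 and 1228 CPM with DMSO and at 1179 and 1102 CPM with SGC0946, a log2 fold change of −0.16 (95% interval −0.38 to 0.07). Setd1a was at 246.6 and 249 CPM and then at 238.5 and 236.1 CPM, and its log2 fold change was −0.06. For Setd1b, the gene with the largest fall in KO mESCs, the values were 191.8 and 159.7 CPM with DMSO and 196.3 and 191.2 CPM with SGC0946. Its log2 fold change was 0.14 with a 95% interval of −0.16 to 0.44, against −0.72 in mESCs, and the difference between the systems was not tested. Without DMSO replicate 1 it was 0.28, and without DMSO replicate 2 it was 0.02. Kmt2d spread widely between pools, at 440.4 and 351.6 CPM with DMSO and at 509.7 and 332.5 CPM with SGC0946. Kmt2b was at 165.9 and 125 CPM and then at 143.4 and 125.4 CPM. In both of these genes the treated range overlapped the control range, and the log2 fold changes were 0.09 and −0.11. Kmt2a was at 6.262 and 5.315 CPM with DMSO (170 and 141 counts) and at 7.244 and 5.354 CPM with SGC0946 (190 and 176 counts). The groups overlapped, and its log2 fold change of 0.12 had an interval from −0.92 to 1.16.

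Ash2l in embryos was at 102.4 and 116.1 CPM with DMSO and at 102.1 and 118.5 CPM with SGC0946, a log2 fold change of 0.01. Rbbp5 was at 38.57 and 48.13 CPM and then at 35.95 and 45.6 CPM, a log2 fold change of −0.09. In both genes the replicates differed more than the groups. Men1 was at 29.36 and 29.44 CPM with DMSO and at 27.03 and 22.42 CPM with SGC0946. Its log2 fold change of −0.25 had a 95% interval from −0.80 to 0.30 and an edgeR adjusted p of 0.882. Without SGC0946 replicate 1 it was −0.39, and without SGC0946 replicate 2 it was −0.12.

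The control groups were also set side by side to describe where each gene stood in each system. The RNA tables differ in library kit, counting and annotation, and CPM is not per length, so the same gene is followed between tables by its percentile among the tested genes of each table, with no test. Because the tested sets differ in size, percentiles among genes present in both tables are given as well. Kmt2a moved most, from percentile 94.6 in WT mESCs to percentile 39.7 in DMSO embryos, or from 95.1 to 58.7 among shared genes. It held 17.9 to 18.9% of the summed counts of the 6 catalytic genes in WT mESCs and 0.251 and 0.265% of those in DMSO embryos. Setd1b went the other way, from percentile 75.9 to 91.4 (77.7 to 93.9 among shared genes), with shares of 4.2 to 4.6% in WT mESCs and of 7.54 and 8.11% in DMSO embryos. Kmt2c was near the top in both, at percentiles 97.8 and 99.7, with 35.2 to 36.8% and 55.6 to 58.0% of the catalytic counts. For these 3 genes the control libraries of the tables did not overlap. Gm39326 overlaps Kmt2a by 26434 bp, as given above, and how each table counted reads there is not known. Kmt2b held 11.4 to 12.0% and 5.9 to 7.01%, whereas the ranges of Kmt2d (18.3 to 19.1% and 16.6 to 18.6%) and Setd1a (10.8 to 10.9% and 10.4 to 11.8%) overlapped. In the core, Ash2l went from percentile 98.1 to 86.2 and Rbbp5 from 88.7 to 72.3, while Wdr5 was at 95.3 and 96.8. Men1, for menin, was at percentiles 61.3 and 66.1. In all, 6 of the 10 genes ranked higher in embryos, and 7 did among genes present in both tables, where Kmt2b also ranked higher (91.1 and 92.6).

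**Figure D5:**
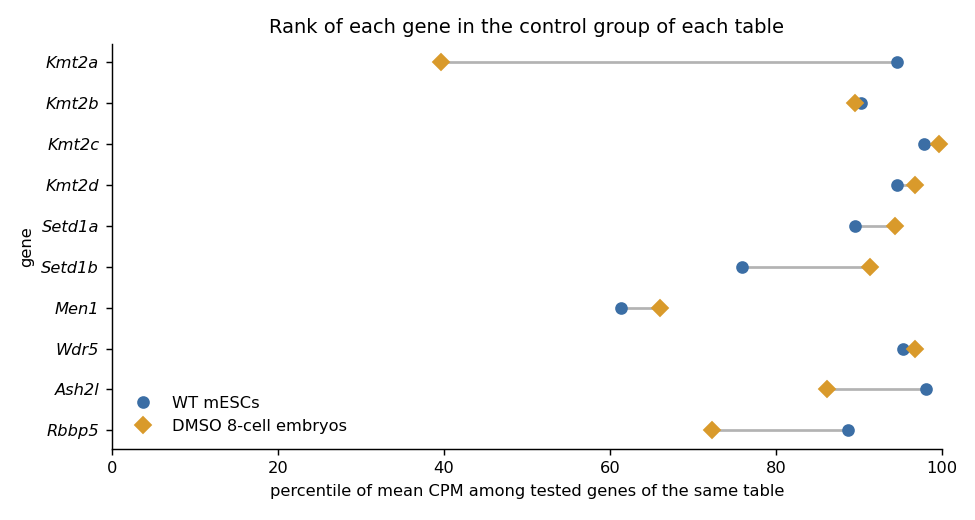
Percentile of mean CPM among the tested genes of each table (horizontal axis) for each gene in WT mESCs (circles, 3 libraries) and DMSO 8-cell embryos (diamonds, 2 libraries). Kmt2a moves from 94.6 to 39.7 (95.1 to 58.7 among genes present in both tables) and Setd1b from 75.9 to 91.4, and 6 of 10 genes, or 7 among shared genes, rank higher in embryos.

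Other genes of the pathway were read from 2 lists, 12 further subunits and partners of the complexes and 6 H3K4 demethylases or their partners. In KO mESCs 5 of the 12 partners were lower and 0 higher, with a list median of −0.11. Of all tested genes 21.7% were lower, 22.5% higher and 44.3% called in all. The median SE was 0.05 in this list and 0.0978 over all genes. Of the 5 lower partners, 2 are X-linked. Among all tested X-linked genes with at least 1 CPM, 88.3% had a negative log2 fold change, called or not. Kdm6a, the X-linked H3K27 demethylase of KMT2C and KMT2D complexes, had 254.3 ± 2.66 CPM in WT and 107.2 ± 8.83 CPM in KO (SD, n = 3 and 2), which is −1.25 as a log2 fold change (edgeR adjusted p 6.08e-12). Hcfc1, the X-linked host cell factor of MLL and SET1 complexes, had a log2 fold change of −0.56. On autosomes, Bod1l, a partner of SETD1A, fell from 250.1 ± 6.56 to 194 ± 14.8 CPM (SD, n = 3 and 2), with a log2 fold change of −0.37 and an edgeR adjusted p of 9.06e-06. The SET1-specific subunits Wdr82 and Cxxc1, the latter a CpG-binding protein, had −0.18 and −0.19. The call of Cxxc1 was lost with upper-quartile scaling (adjusted p 0.112), in DESeq2 (0.0734) and in edgeR without WT replicate 3 (0.0748) or KO replicate 2 (0.0786).

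Of the demethylase list, 2 of 6 were called lower in KO and 0 higher, against 21.7% of all tested genes lower and 22.5% higher. The list median was −0.08, and its median SE was 0.04, against 0.0978 over all genes. Kdm5c, an X-linked H3K4 demethylase, fell from 409.2 ± 7.11 to 213.8 ± 3.32 CPM (SD, n = 3 and 2), a log2 fold change of −0.94, and its autosomal relative Kdm5b fell from 1015 ± 17.4 to 817.6 ± 18.3 CPM, a log2 fold change of −0.31. Without KO replicate 2, 4 of the 6 were called, as were 8713 of 20056 tested genes. In embryos 0 of the 12 partners and 0 of the 6 demethylases were called in edgeR, as were 0% of all tested genes. At an unadjusted edgeR p under 0.05 it was 1 of each list, against 8.43% of all genes. The list medians were −0.04 and −0.21, against 0.01 for all genes, with quartiles at −0.26 and 0.36.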

How the data were processed

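The deposited mESC table holds expected counts (estimated counts) per Ensembl gene, and the deposited embryo table holds whole read counts per gene symbol. Per the submitters' processing notes, kallisto, STAR and HTSeq were named for mESC RNA, STAR and HTSeq for embryo RNA, Bowtie2 and MACS2 for ChIP, and mm10 for all. Per the labels' protocols, mESC libraries used KAPA RNA HyperPrep with RiboErase and embryo libraries used a Pico Input kit, SMARTer Stranded Total RNA-seq v3. Versions, the MACS2 control and the strandedness of counting are not given in the sources used here. Peak lists were deposited per library, and their score, fold enrichment (a ratio) and −log10 p and q are the authors' own. Peaks were placed on genes of the RefSeq annotation of GRCm38.p6, which gives no strand, and input libraries were not used.

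Expected counts were rounded. Each table was fitted alone with edgeR 4.0.16 in R 4.3.3, with filterByExpr, TMM scaling and the robust quasi-likelihood F test, and Benjamini-Hochberg adjustment over all tested genes. Called genes have an adjusted p under 0.05, and every adjusted p comes from this test unless another tool is named. CPM uses TMM library sizes, and intervals are 95% from the fit. The 69 mESC rows without a symbol held at most 0.0163% of counts and were left out. Replicates differed by more than sampling: chi-square divided by its degrees of freedom was 2.43 to 5.58 for mESC pairs, and for embryo pairs 28.5 and 38.6. Reads are not independent molecules, so counting limits cover counting error only.

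Named genes were all 10 members, the called genes of the partner and demethylase lists, and Dot1l. The members, lists and tests were chosen with earlier results of these data known. Alternatives were edgeR with DESeq2 size factors or upper-quartile scaling, DESeq2 1.42.0, limma-voom (limma 3.58.1), all genes unfiltered, a minimum of 10 counts per library, blocking on replicate number, leaving out each library, and, for peaks, a −log10 q of at least 5, at least 10% of the body covered, 2 kb added to the body, and single lists. A fit on autosomal genes only was chosen after seeing the data. Peaks were read with Python 3.11.15 and pandas 2.3.3, and plots drawn with matplotlib 3.10.9.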

Additional observations from a re-analysis of the deposited data

How the results depend on the processing

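Kmt2b, Kmt2c, Kmt2d, Setd1b and Wdr5 were called lower in KO mESCs under all 13 alternatives, and 5 to 8 members were called in all. Blocking on replicate number, which the labels share between groups without saying why, called 8137 genes and 8 members, among them Kmt2a as higher (0.12, edgeR adjusted p 0.0448), and left Cxxc1 uncalled (adjusted p 0.0548). WT replicate 3 has no KO library of the same number, so it did not enter the KO and WT difference of that fit. Deviations of same-numbered libraries from their group means had correlations of 0.00461 and −0.0267 in mESCs and 0.0524 in embryos. In a group of 2 libraries these deviations mirror each other, so the correlations cannot settle whether libraries were paired. In embryos the count of called genes, 0 as reported, was 126 in DESeq2, 55 in limma-voom, 119 without a filter, 45 with at least 10 counts in every library, 196 with the replicate block, and 1 to 389 when 1 library was left out. No member was called under any of these. Leaving out 1 embryo library turned the direction of 5 small values, which ranged from −0.11 (without SGC0946 replicate 1) to 0.32 for Kmt2a, from −0.30 to 0.10 (without DMSO replicate 1) for Kmt2b, from −0.25 (without SGC0946 replicate 1; −0.06 without DMSO replicate 2) to 0.36 for Kmt2d, from −0.10 and −0.08 (without SGC0946 replicate 2 and DMSO replicate 1) to 0.12 for Ash2l, and from −0.27 to 0.08 (without DMSO replicate 2 or SGC0946 replicate 1) for Rbbp5. Fits that leave 1 library in a group assume that it varies like the other group. H3K79me3 lay over 4 members as reported, over 2 at a −log10 q of at least 5 (6.5% of all tested genes), over 0 with at least 10% of the body covered (3.03% of all), and over 4 to 8 when 1 WT list was left out (11.6 and 26.8% of all). The cause of these changes was not tested. On autosomal genes alone, 3 partners and 1 demethylase were called, since that fit leaves out the genes on chromosome X. The depth of the ChIP libraries is unknown, and the embryo value of Kmt2a rests on 141 to 190 counts per library.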

Other observations

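H3K79me2 of both WT lists lay over all 12 partner genes and all 6 genes of the demethylase list, against 44.3% of all tested genes with a position. Of these 18 genes, 13 were in the fifth of 5 expression groups of WT mESCs, where 94.2% of genes were marked, and 3 in the fourth, where 76.9% were. The others were Hcfc2 and Pagr1a, in the third and the second group, where 33.6% and 7.22% were marked. The Hcfc2 peaks nearest its start lay 52824 and 56137 bases after it, in a body of 96.9 kb. Those of Pagr1a lay 1476 and 1526 bases after its start, in a body of 2.3 kb. At a −log10 q of at least 5, Pagr1a was no longer marked. Genes overlapping Hcfc2 or Pagr1a were not looked up. H3K79me3 of both lists lay over 4 of the 12 partners (Hcfc1, Tasp1, Wdr82 and Kdm6a) and 3 of the 6 demethylase genes (Kdm1a, Kdm5b and Kdm5c), against 11.2% of all genes and 34.9% of the fifth expression group, which held all of these but Tasp1. Tasp1 had 1 H3K79me3 peak per list, of 0.43 and 0.496 kb, beginning 194073 and 193724 bases after the start of its 233.4 kb body. At a −log10 q of at least 5, H3K79me3 no longer marked Tasp1. With at least 10% of the body covered, H3K79me3 marked Wdr82 and Kdm5b alone of these 18 and the 10 members. Dot1l itself had H3K79me2 over 29.3 and 25.7% of its body, at 7.59-fold and 9.29-fold enrichment, and H3K79me3 in WT replicate 1 alone, over 2.41%.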
